A study of Rattus norvegicus with 6 samples.

Results

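Both strands of the microRNA miR-9a, rno-miR-9a-5p and rno-miR-9a-3p, and of its antisense counterpart miR-9b were followed in cultured rat oligodendrocyte precursors, the glial cells that mature into the myelin-forming cells of the brain and spinal cord. The members were all probes whose name starts with rno-miR-9a- or rno-miR-9b-, which gave 4 of the 761 rat miRNA probes on the array. The series holds 3 samples of precursors allowed to differentiate by a change of growth factors in Raff medium (titled DIV3) and 3 samples of precursors kept in the normal condition in that medium (titled DIV0), each on 1 single-colour Cy5 array. The numbers in the titles, 3 and 0, were read as days in culture, so time in culture and growth condition cannot be told apart. Strain, age and sex of the source animals are not given in the sources used here, and no label says that the samples are independent cultures, so each p-value below is set by how far these 6 samples scatter, and that scatter could be technical.

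A miRNA is cut from a hairpin precursor, and either strand of the stem, the 5p or the 3p arm, can be loaded into the silencing complex, where bases 2 to 8 (the seed) choose the messenger RNAs to be repressed. miR-9 is among the most abundant miRNAs of the developing nervous system and is best known from neural progenitors, where the 5p arm represses regulators such as Hes1, Nr2e1 and Rest and the 3p arm represses the Rest partner Rcor1. In the oligodendrocyte lineage it is described as a miRNA of the precursor stage, with Pmp22, a myelin gene of peripheral nerve, among its targets in rat cells.

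The mature sequences of all 4 members were found in RefSeq (assembly GRCr8) and are shown because each miR-9b arm differs from the miR-9a arm of the same name by few bases. Capitals mark the seed.
miR-9a-5p: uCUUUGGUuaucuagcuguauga
miR-9a-3p: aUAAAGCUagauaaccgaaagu
miR-9b-5p: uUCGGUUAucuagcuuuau
miR-9b-3p: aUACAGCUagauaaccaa
None of the other rat mature sequences in that table (693 names) carried any of these 4 seeds. Placed on miR-9a-5p, miR-9b-5p matched 17 of 19 bases and differed by U5C and G18U, with positions counted from the 5′ end of miR-9a-5p. Placed on miR-9a-3p, miR-9b-3p matched 16 of 18 bases and differed by A4C and G17A, counted from the 5′ end of miR-9a-3p. These 2 were also the nearest relatives of the miR-9a arms among the array's miRNAs with a sequence in the table. Across the duplex the relation is the reverse. The reverse complement of miR-9b-3p matched bases 4 to 21 of miR-9a-5p with 0 differences, and that of miR-9b-5p matched bases 1 to 19 of miR-9a-3p with 0 differences.

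The rat genome holds 3 miR-9a hairpins, shown here with the mature arms in capitals because all 3 give the same pair of mature strands and the array cannot tell them apart.
Mir9-1: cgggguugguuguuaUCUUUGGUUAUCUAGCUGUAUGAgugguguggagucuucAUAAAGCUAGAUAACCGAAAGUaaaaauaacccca
Mir9-2: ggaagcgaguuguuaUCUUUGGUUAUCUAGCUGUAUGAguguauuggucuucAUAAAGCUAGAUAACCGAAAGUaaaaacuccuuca
Mir9-3: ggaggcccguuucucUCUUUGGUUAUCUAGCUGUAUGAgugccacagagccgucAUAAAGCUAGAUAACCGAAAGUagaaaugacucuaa
In GRCr8 Mir9-1 lies at chr2:175974971-175975059, Mir9-2 at chr2:15933292-15933378 and Mir9-3 at chr1:142849400-142849489, all on the plus strand. The stretch between the arms is 16, 14 and 16 bases long in Mir9-1, Mir9-2 and Mir9-3 and differs among them. Each hairpin lies inside the span of a longer gene, Mir9-1 in LOC100911992 (a long non-coding RNA), Mir9-2 in Mir9-2hg (annotated as protein-coding) and Mir9-3 in Mir9-3hg (a long non-coding RNA). The table used gives neither exons nor strand for these longer genes. On the minus strand of each locus lies a miR-9b hairpin, Mir3597-1, Mir3597-2 and Mir3597-3. RefSeq places miR-9b-5p in all 3 of them and miR-9b-3p in 2 of them.

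The arrays differed in brightness. The median miRNA spot exceeded the mean of the blank spots by 27.9 to 44.7 intensity units on the DIV3 arrays and by 5.87 to 37.7 units on the DIV0 arrays. The lowest value belongs to the DIV0 array of replicate 3, whose spike-in controls averaged 6832 units against 27861 to 36833 units on the other 5 arrays. For the labelled cell type, 5 of 5 listed oligodendrocyte-lineage miRNAs (miR-138-5p, both arms of miR-338, miR-219a-5p and miR-219a-2-3p) were detected on all arrays. The limma fit called 5 of 5 higher in DIV3, against 1.01% of all tested miRNAs. That list was chosen with earlier results of these data known, so its count is no independent check of the cell type. Outside the list, miR-219a-1-3p was detected on 5 arrays, with a log2 fold change of -0.33 (limma adjusted p = 0.43). That of miR-138-1-3p was 0.32 (limma adjusted p = 0.43). The summed level of the 5 listed miRNAs was 3265 to 4326 units in DIV3 against 239 to 890 units in DIV0, on the scaled levels defined below. Each of the 5 was also called in 21 to 23 of 27 alternative settings. Sums over different probes do not rank cell types against each other, and those below serve only to compare the groups. The markers of neurons (8 of 8 detected on all arrays) summed to 485 to 764 units in DIV3 and 617 to 710 units in DIV0, and those of microglia and blood cells (5 of 6) to 203 to 480 and 246 to 668 units. Of the latter, miR-223-3p, miR-155-5p and both arms of miR-142 were highest on the replicate 2 array in either group. For miR-223-3p it read 238 units in DIV3 and 336 units in DIV0. The others, miR-451-5p and miR-144-3p, did not have this pattern. The markers of mural cells and fibroblasts (5 of 5) summed to 217 to 542 units in DIV3 and 241 to 529 units in DIV0, and those of endothelium (0 of 2) to 17.6 to 29.4 and 10.6 to 21.9 units. By limma 0 miRNAs of these other lists passed an adjusted p of 0.05 (2 had an unadjusted p under 0.05), against 1.58% and 11.1% of all tested miRNAs, and their part in the results was not tested.

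The 2 arms of miR-9a were bright on every array, while both miR-9b probes stayed near the blank spots. Above the mean of the blank spots, miR-9a-5p had 17911, 29404 and 24620 units on the DIV3 arrays of replicates 1, 2 and 3, against 15573, 15416 and 3361 units on the DIV0 arrays. miR-9a-3p had 4939, 9320 and 7106 units in DIV3, against 4764, 5687 and 1042 units in DIV0. The unscaled values of either arm were lowest on the dim DIV0 array of replicate 3 and highest on the DIV3 array of replicate 2. By brightness the 5p spot ranked 1 among the 761 miRNA probes on all 6 arrays and the 3p spot ranked 4 on all 6. The next probe below the 5p spot was miR-375-5p each time, and the 5p spot was 2.10 to 2.44 times as bright as it in DIV3 and 1.51 to 1.89 times in DIV0. Spots differ in how much light they give per molecule, so these ranks order brightness and not copy number.

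A miRNA was called detected where its spot exceeded the blank mean by 2 SD of the blanks, which is 2.14 to 12.3 units depending on the array. The spot of miR-9b-5p lay 10.02, 0.32 and 9.53 units above the blank mean in DIV3, against 4.66, 11.9 and 0.53 units in DIV0. It was detected on 2 of 6 arrays, the DIV3 array of replicate 1 and the DIV0 array of replicate 2. The spot of miR-9b-3p lay 3.74, 2.53 and 2.88 units above it in DIV3, against 7.52, 19.6 and 1.88 units in DIV0. It was detected on none of the 3 DIV3 arrays and on 2 of the 3 DIV0 arrays, those of replicates 1 and 2. Neither miR-9b probe reached the 3 detected arrays needed for the test, so 2 of the 4 members were tested, and no fold is given for miR-9b. With that filter lifted, miR-9b-3p had a limma adjusted p of 0.24 (unadjusted p = 0.0079) and miR-9b-5p one of 0.996. After the scaling to a median of 25 described below, the miR-9b-3p values of all 3 DIV3 arrays lay below those of all 3 DIV0 arrays. By itself this makes them lower in 3 of 3 pairs of equal replicate number. Among the tested miRNAs, which leave out miR-9b-3p, 8.21% showed that pattern. Unscaled, the miR-9b-3p groups overlapped. The miR-9b probes thus read at most 19.6 units on arrays where the miR-9a spots, with sequences that differ from theirs at 2 of the aligned bases, read 1042 units or more. The 5 spots next to miR-9a-5p on the array were also dim, between 0.33 units below and 89.0 units above the blank mean, and the 5 next to miR-9a-3p lay 1.29 to 78.5 units above it.

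**Figure D1:**
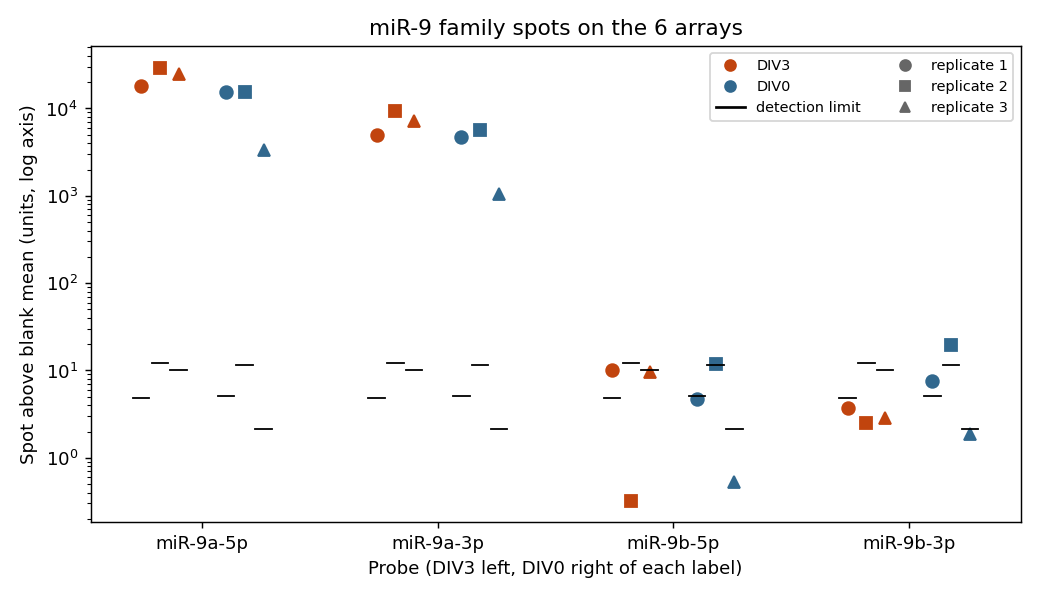
Intensity of the 4 miR-9 family spots above the blank mean of their array (units, log axis), DIV3 arrays to the left and DIV0 arrays to the right of each label, with a short bar at each array's detection limit. Both miR-9a arms lie between 1042 and 29404 units on the 6 arrays, and the miR-9b spots lie between 0.32 and 19.6 units.

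The main question was whether the level of either arm differs between the differentiated and the normal condition once array brightness is taken out. Values were therefore divided by a single factor per array that set the median miRNA probe to 25 units, which leaves the bright end of the array free to move. The scaled level of miR-9a-5p, the arm that represses progenitor regulators, was 16060, 16450 and 18605 units in DIV3, against 15298, 10220 and 14321 units in DIV0. All 3 DIV3 values lay above all 3 DIV0 values, a pattern that 8.93% of the tested miRNAs showed in that direction, and the DIV0 array of replicate 2 was well below the other two. The means were 17039 ± 1371 units in DIV3 and 13280 ± 2694 units in DIV0 (SD, n = 3 each). The log2 fold change was 0.38 ± 0.17 (SE), or 1.30-fold with a 95% interval of 0.996 to 1.70, and did not pass (limma adjusted p = 0.43 over 695 miRNAs, unadjusted p = 0.053).

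The 3p arm, miR-9a-3p, moved less. Its scaled level was 4428, 5214 and 5370 units in DIV3, against 4680, 3771 and 4438 units in DIV0, and the groups overlapped. The DIV3 array of replicate 1 lay below 2 of the 3 DIV0 arrays. The means were 5004 ± 505 units in DIV3 and 4296 ± 471 units in DIV0 (SD, n = 3 each). The log2 fold change was 0.22 ± 0.15 (SE), or 1.16-fold with a 95% interval of 0.928 to 1.46 (limma adjusted p = 0.63). Of the 2 arms tested 0 were called, while 1.58% of the 695 miRNAs were, 1.01% as higher and 0.576% as lower in DIV3. At an unadjusted p under 0.05 the share was 11.1%, with neither arm in it. Within its interval the 5p arm may be up to 1.70-fold higher in DIV3 or unchanged. These folds are on the log2 scale with 16 units added, and the addition hardly matters at this brightness.

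**Figure D2:**
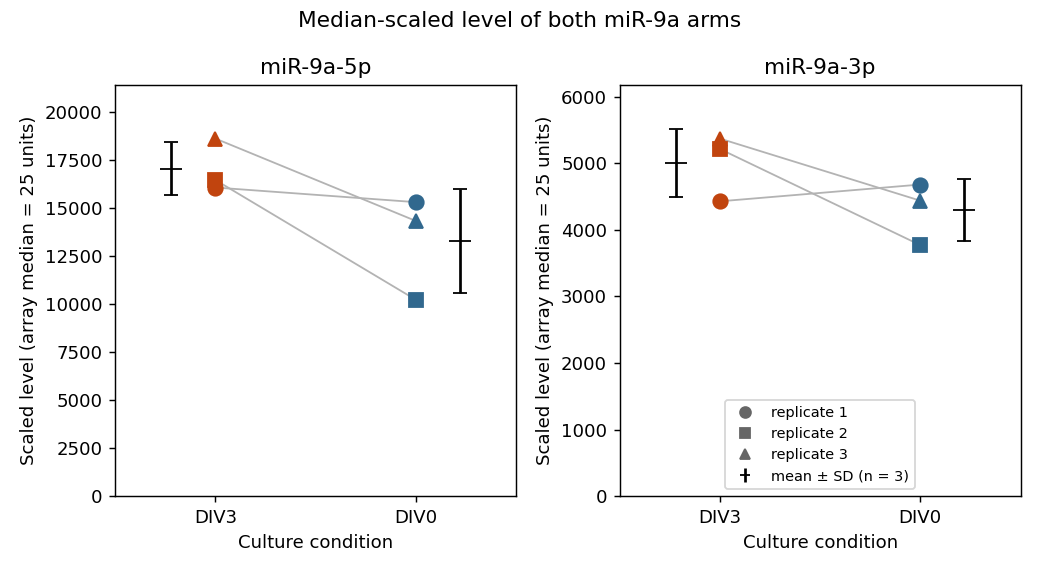
Scaled level of miR-9a-5p (left) and miR-9a-3p (right) on each array, in units where the median miRNA probe is 25, with grey lines between arrays of equal replicate number and the mean ± SD beside each group. The 3 DIV3 values of the 5p arm (16060 to 18605) lie above its DIV0 values (10220 to 15298), and those of the 3p arm overlap.

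The size of the difference varied between the pairs. Within the pairs numbered 1, 2 and 3 the log2 difference of miR-9a-5p was 0.07, 0.69 and 0.38. That it was higher in DIV3 in 3 of 3 pairs follows from the separated groups. The log2 difference of miR-9a-3p was -0.08, 0.47 and 0.27, higher in 2 of 3. In pair 2 both arms showed their largest difference, and in pair 1 the smallest. Without the DIV0 array of replicate 2 the log2 fold changes were 0.20 for the 5p arm and 0.13 for the 3p arm, and without both arrays numbered 2 they were 0.22 and 0.097. Without both arrays numbered 1 they were 0.53 and 0.37. Leaving out the dim DIV0 array of replicate 3 gave 0.44 and 0.25, and leaving out 1 DIV3 array at a time gave 0.31 to 0.42 for the 5p arm and 0.17 to 0.31 for the 3p arm. Arrays of equal number deviated together across miRNAs, and with the replicate number as a block 26 miRNAs passed in place of 11, neither arm among them. The blocked adjusted p was 0.18 for miR-9a-5p (95% interval of the log2 fold change 0.064 to 0.69) and 0.47 for miR-9a-3p. Pairs 1 and 2 each shared a slide, so the pair differences are also the within-slide ones. The arrays numbered 3 were on separate slides. Every DIV3 array lay in the second position of its slide and every DIV0 array in the first, which means that an effect of position cannot be told apart from one of condition.

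How the miR-9a-5p spot was read also appeared to differ between the groups. Each array was scanned at 3 gains that the file headers join by straight lines onto gain 1, with slopes of 0.216 to 0.39 for gain 2 and 0.072 to 0.176 for gain 3. The spot of miR-9a-5p is a whole number on all 3 DIV3 arrays (17997, 29615 and 24791 units) and carries decimals on all 3 DIV0 arrays (15661.5, 15604.8 and 3434.75 units), as every other miRNA spot does on all arrays. On the 5 arrays that hold whole numbers, every spot brighter than the lowest of them is whole too, including all 16 spike-in spots, and the DIV0 array of replicate 3 holds none. Whole numbers are what an unconverted gain 1 reading gives, so the 5p arm appears to have been read directly in DIV3 and through a converted gain in DIV0. The fits behind the conversion had r2 values of 0.9986 to 0.9999, and their part in the 5p difference was not tested. The spot of miR-9a-3p carries decimals on all 6 arrays.

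The balance of the arms is free of any scaling between arrays, since both spots lie on the same array. The blank-corrected 5p spot was 3.63, 3.16 and 3.46 times as bright as the 3p spot in DIV3, against 3.27, 2.71 and 3.23 times in DIV0. On the log2 scale the balance was 1.77 ± 0.10 in DIV3 and 1.61 ± 0.15 in DIV0 (SD, n = 3 each), a difference of 0.16 toward the 5p arm. The groups overlapped, as the DIV3 array of replicate 2 lay below 2 DIV0 arrays, and the exact permutation p was 0.3 (two-sided, with 0.1 the smallest that 3 against 3 samples allow). Within the pairs the difference was 0.15, 0.22 and 0.10, toward the 5p arm in 3 of 3 pairs, with an exact p of 0.25 by sign flips within pairs, the smallest that 3 pairs allow. The balance is a ratio of brightness and does not give the ratio of molecules. The change of gain between the groups that the whole numbers above appear to show concerns the 5p spot. Which gain the decimal values of the 3p spot came from is not known, so a change of gain there was not tested.

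The share of the array's light taken by miR-9a gives a second view that does not rest on the median probe. The 5p arm held 9.99%, 10.6% and 10.9% of the summed blank-corrected signal of all miRNA probes in DIV3, against 9.39%, 7.36% and 8.89% in DIV0. All DIV3 shares lay above all DIV0 shares, as for 7.64% of the tested miRNAs. The mean share was 10.5% ± 0.468 in DIV3 and 8.55% ± 1.06 in DIV0 (SD, n = 3 each), a difference of 1.95 percentage points (exact permutation p = 0.1, two-sided, the smallest possible, and 0.2 after Benjamini-Hochberg adjustment over the 4 comparisons of balance and share). The 3p arm held 2.75%, 3.36% and 3.15% in DIV3, against 2.87%, 2.71% and 2.76% in DIV0, with overlapping groups. Its mean share was 3.09% ± 0.306 in DIV3 and 2.78% ± 0.0828 in DIV0 (exact permutation p = 0.3, adjusted 0.3, n = 3 each). Together the arms held 12.7% to 14.1% of the signal in DIV3 and 10.1% to 12.3% in DIV0, with means of 13.6% ± 0.73 and 11.3% ± 1.13 (exact permutation p = 0.1, adjusted 0.2, n = 3 each). Within pairs 1, 2 and 3 the joint share was 0.473, 3.88 and 2.41 percentage points higher in DIV3. On each array at least 10.1% of the miRNA light thus came from the spots of the miR-9a arms. A share of light is not a share of molecules, and in bulk RNA fewer cells of a type and less RNA per cell cannot be told apart.

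**Figure D3:**
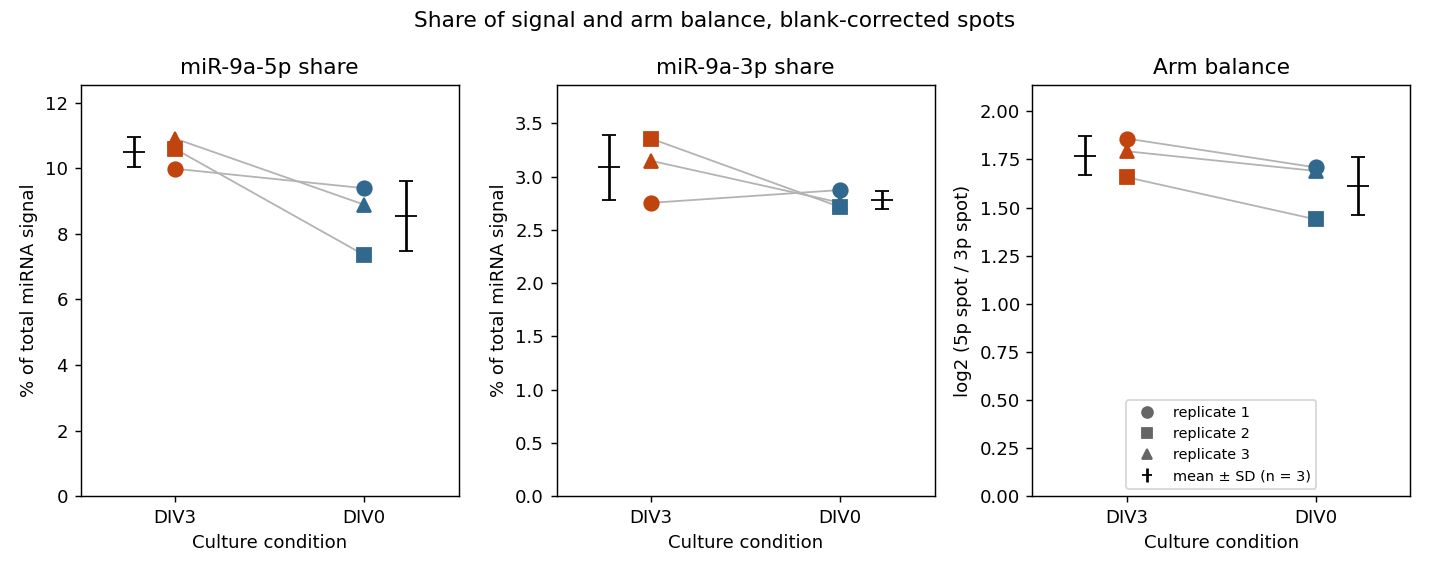
Share of the summed miRNA signal held by miR-9a-5p (left) and miR-9a-3p (middle), in percent, and log2 ratio of the 5p to the 3p spot (right), on each array, with lines between arrays of equal replicate number and the mean ± SD beside each group. The 5p share separates the groups (9.99% to 10.9% in DIV3, 7.36% to 9.39% in DIV0), while the 3p share and the balance overlap.

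Set beside other bright probes, the miR-9a arms were not alone in reading slightly higher in DIV3. Among the 20 brightest miRNAs outside the family, 0 rose and 1 fell, miR-21-5p, a miRNA abundant in growing cells (log2 fold change -0.79 ± 0.16, limma adjusted p = 0.030), against 0.576% of all tested miRNAs that fell. That call was lost in 17 of 27 alternative settings, among them spike-in scaling (adjusted p = 0.34), the slide block (0.070), the deposited values (0.16) and all but 1 of the 9 settings that left out arrays, and the adjusted p ran from 0.0050 to 0.94. Without scaling between arrays its log2 fold change was 0.15. The median log2 fold change of the 20 was 0.077, against -0.0063 over all tested miRNAs, and 12 of the 20 lay above 0. The 10 brightest of them were miR-375-5p (-0.09), miR-125b-5p (0.36), let-7a-5p (0.13), miR-16-5p (0.04), let-7f-5p (0.19), let-7c-5p (0.12), miR-347 (0.11), let-7d-5p (0.08), miR-21-5p (-0.79) and miR-17-5p (0.44), given as log2 fold changes. The value of miR-17-5p, from a cluster known for promoting proliferation, lay above that of miR-9a-5p, and that of miR-125b-5p, a miRNA abundant in brain, lay just below it (limma adjusted p-values of 0.36 and 0.44). With the replicate block 2 of the 20 fell by limma, miR-21-5p and miR-3473, against 13 of all 695 tested miRNAs. Of 27 alternative settings miR-3473 was called in 1, the replicate block. Its scaled levels were 1457, 4644 and 1808 units on the DIV0 arrays of replicates 1, 2 and 3, against 1075 to 1596 units in DIV3.

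**Figure D4:**
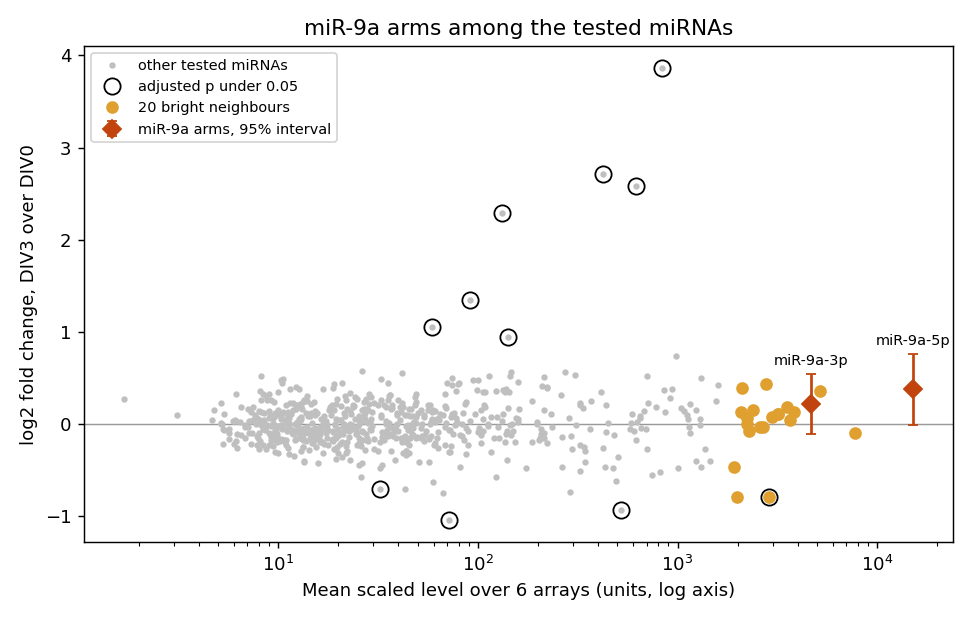
Log2 fold change of DIV3 over DIV0 against the mean scaled level over the 6 arrays (log axis) for the 695 tested miRNAs, with open circles around the 11 past an adjusted p of 0.05, the 20 bright neighbours in yellow, and both miR-9a arms with 95% intervals. The arms stand at 0.38 and 0.22 at the bright end, and both intervals include 0.

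miR-9 is usually listed with miRNAs that are high in precursors or hold differentiation back, and the 9 other miRNAs of such a list were read in the same fit. Of the 9, 0 rose and 0 fell by limma, against 1.01% and 0.576% of all tested miRNAs, and 2 had an unadjusted p under 0.05, against 11.1%. Of their log2 fold changes 3 lay above 0 and 6 below, with a median of -0.067. The 4 with the smallest p were miR-222-3p (-0.70 ± 0.25, adjusted p = 0.34), miR-221-3p (-0.50 ± 0.22, adjusted p = 0.43), miR-27a-3p (-0.27 ± 0.13, adjusted p = 0.45) and miR-7a-5p (-0.14 ± 0.15, adjusted p = 0.77). miR-221 and miR-222 are known for targeting the cell-cycle inhibitor p27, and in the fit blocked by replicate number miR-222-3p fell (limma adjusted p = 0.011). That fit called 13 of 695 miRNAs as lower, and it was the only 1 of 27 alternative settings that called miR-222-3p. Both miR-9a arms had point estimates of the opposite sign to the 4 with the smallest p. They shared their sign with the 3 of the 9 above 0, and the difference between the arms and the list was not tested.

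A second list held 12 miRNAs known as abundant in brain or neurons. It includes every neuron marker summed above except miR-323-3p. By limma 0 of the 12 were called in either direction, against 1.58% of all tested miRNAs, and 3 had an unadjusted p under 0.05, against 11.1%. Their median log2 fold change was -0.021. The 4 with the smallest p were miR-181a-5p (0.74 ± 0.17, adjusted p = 0.074), miR-132-3p, known for its induction by neuronal activity (-0.44 ± 0.17, adjusted p = 0.36), miR-128-3p (-0.39 ± 0.17, adjusted p = 0.43) and miR-125b-5p (0.36 ± 0.18, adjusted p = 0.44). With the replicate block miR-181a-5p rose (limma adjusted p = 0.0041), in a fit that called 13 of 695 miRNAs as higher. It was called in 3 of 27 alternative settings. The neuronal miRNA miR-124-3p, often named together with miR-9, stood at -0.03 ± 0.21, with scaled levels of 168 to 318 units in DIV3.

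The miRNAs whose profile over the 6 arrays most resembled that of the arms were sought among 535 others detected on all arrays, by the Pearson correlation of scaled log2 levels. For miR-9a-5p the 5 highest were let-7f-5p (r = 0.996), miR-20a-5p (0.992), miR-20b-5p (0.985), miR-30e-5p (0.982) and miR-30e-3p (0.982). For miR-9a-3p they were miR-301a-3p (0.964), miR-20a-5p (0.930), miR-9a-5p (0.921), miR-124-5p (0.919) and miR-15a-5p (0.908). The partner arm was at place 3 for the 3p arm, and the 3p arm was at place 23 for the 5p arm. These correlations describe 6 points that share the arrays and their scaling factors. The log2 fold changes of the 8 miRNAs outside the family in these 2 sets lay between 0.16 and 0.43, and none of them was called.

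The size of the miR-9a difference depended on how the arrays were brought to a common scale, while its sign was the same in most settings. Scaled to equal total signal the log2 fold changes were 0.30 for the 5p arm and 0.15 for the 3p arm, and scaled to the spike-in controls they were 0.45 and 0.29. In the deposited values, where each array has a median of 25, the limma fit gave 0.47 for miR-9a-5p and 0.32 for miR-9a-3p. With normexp correction, which here adds 50 units before the scaling, they were 1.08 and 0.91. Quantile normalization returned 0 for the 5p arm and 0.00029 for the 3p arm, since each arm has the same rank on all 6 arrays. Subtracting the local background left 0.72 for the 5p arm and removed the 3p arm, whose local background value exceeded the spot itself on all 6 arrays. The 5 spots next to miR-9a-3p were dim, 1.29 to 78.5 units above the blank mean. Why the local background value was so high there was not tested. In none of these settings did either arm pass the adjusted threshold.

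**Figure D5:**
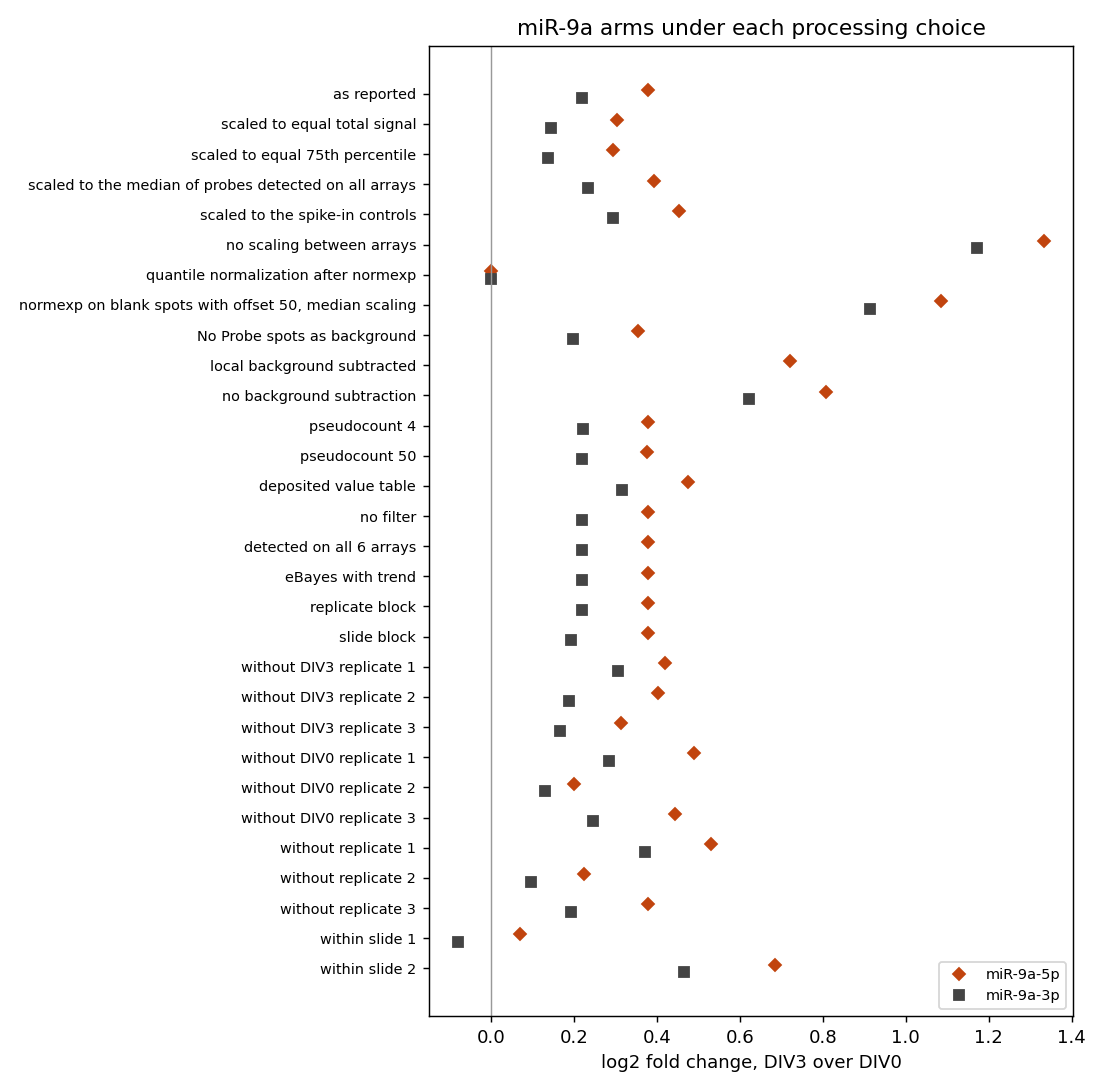
Log2 fold change of DIV3 over DIV0 for miR-9a-5p (diamonds) and miR-9a-3p (squares) under each processing choice, with settings down the page. Apart from quantile normalization, which holds both at 0, the 5p arm lies between 0.07 and 1.33, and the 3p arm lies below 0 only within slide 1.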

How the data were processed

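Each scanner file gives, for 3200 spots, a median intensity and a local background, joined from 3 gains per the file headers, and used here as raw values. The deposited value table also holds intensity, and how it was made is not stated. Each of its columns follows the scanner spot values along a straight line within 0.522 units and has a median of 25, so the scale is linear, the genes are not centred, and there is 1 channel. The labelling protocol names a kit for amplifying messenger RNA, and its use on miRNA is not described. From the 1664 BLANK spots a mean and SD were taken without the highest and lowest 5%. The blank mean was subtracted from each spot, arrays were scaled to a median of 25 over the 761 miRNA probes, values below 0 were set to 0, 16 units were added and log2 taken. Quantile normalization, usual for such arrays, was an alternative because it hides changes at fixed top ranks. The 695 miRNAs detected on at least 3 of 6 arrays were tested with limma 3.58.1 in R 4.3.3 (lmFit, eBayes without trend, two-sided, Benjamini-Hochberg, threshold 0.05). The 1 flagged miRNA spot, on a DIV0 array and of no family member, was left out. The number of arrays limits the precision. Deviations of arrays with equal replicate number correlated at 0.30, 0.48 and 0.38, so the numbers, which come from the titles, were taken to pair the samples. The limma fit was tested on simulated log2 values with independent noise, and the permutation tests on inputs with known answers. Blank subtraction, scaling and the detection filter were not simulated. Members, lists and tests were chosen with earlier results of these data known. Named miRNAs were the family, the 10 brightest others, the 5 most alike each arm, and 4 per list by smallest p; those named for a blocked call or, like miR-124-3p, as background were chosen after their values were seen.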

Additional observations from a re-analysis of the deposited data

How the results depend on the processing

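Neither arm was called under any alternative, with limma adjusted p-values of 0.18 to 1 for miR-9a-5p and 0.46 to 0.999 for miR-9a-3p. The direction of the 3p arm reversed within slide 1 (log2 difference -0.079, share difference -0.12 percentage points). Quantile normalization gave 0 and 0.00029, by construction. The arm balance difference stayed between 0.070 and 0.22 in 16 alternatives, lowest without the DIV0 array of replicate 2, and the 5p share difference between 0.593 and 4.19 percentage points in 19, all toward DIV3. The local background gives no value for the 3p arm or the balance.

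The count of 11 called miRNAs became 7 with spike-in scaling, No Probe background or the slide block, 4 without scaling, with normexp or with 4 units added, 17 with 50 units added, 1 with the local background and 26 with the replicate block, which changed no call of a family member and, among the bright, brake and brain lists, only those of miR-3473, miR-222-3p and miR-181a-5p. By limma it was 0 without background subtraction (23 at an unadjusted p under 0.05) and in the deposited values (65). It was 0 to 10 when arrays were left out, with 0 without both arrays numbered 3 (44 at an unadjusted p under 0.05), 5 without the DIV3 array of replicate 1, 7 without that of replicate 3, 6 without the DIV0 array of replicate 3, and 6 without both arrays numbered 1 or 2.

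Relative to all tested miRNAs, the median of the bright neighbours was 0.54 without scaling, 0.74 with normexp, 0.46 without background subtraction and -0.67 with the local background, against 0.083. That of the precursor and brake list was 0.17 without scaling, 0.24 with normexp and -0.22 with the local background, against -0.061. When arrays were left out it was -0.28 (without the DIV0 array of replicate 2) to 0.089 (without that of replicate 3). That of the brain list was 0.075 with normexp and -0.079 to 0.11 when arrays were left out, against -0.015. Without scaling the median of all tested miRNAs stood at 0.48. The causes were not tested.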
